A study of Mus musculus with 16 samples.

Results

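The comparison set the 4 Shp2lof arrays against the 4 control arrays, 8 of the 16 arrays of the study, over every gene detected in the skin. Each array measured total RNA from dorsal skin of mice aged 15 days, of the strain given as C57/BL6;129Ola mixed, on Illumina mouse bead arrays. Shp2lof skin came from mice of the genotype Krox20-cre:Shp2fl, in which a Cre recombinase made where Krox20 (Egr2) is active acts on a floxed gene for Shp2 (Ptpn11). Control skin carries no further description, so the labels do not say whether the controls had the driver or the floxed allele. The labels do not call a group's 4 samples separate animals. Every p-value reflects the spread within the groups of all 16 arrays, not of these 8 alone, and that spread may be partly technical. The driver is active in only part of the skin's cells, the RNA is of whole skin, and where an array sat on its slide goes with its group, so slide position and group cannot be told apart.

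Shp2 is a tyrosine phosphatase that sits behind growth factor receptors and is needed for full activation of the Ras and ERK pathway, through which EGF and FGF receptors drive growth of keratinocytes. Krox20 is a transcription factor best known from Schwann cells and the hindbrain and is also used in hair follicle cells. At the age studied, mouse skin holds growing hair follicles with their sebaceous glands, an epidermis that stacks cornified envelope proteins into a barrier, a collagen-rich dermis, fat and, below it, a thin muscle.

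Levels are given as log2 of the background-corrected, quantile-normalized signal, and each difference is Shp2lof minus control on that scale, ± its standard error (SE) from limma fitted to all 16 arrays. A gene passed the threshold at a Benjamini-Hochberg adjusted p below 0.05 over all 10232 genes tested. Levels near the background are compressed, so a fold change of a dim gene understates the change. Between 13022 and 13805 probes were detected on the Shp2lof arrays and between 13555 and 13959 on the control arrays, with median signals of 71.5 to 95.9 and 76.7 to 90.3. The keratin Krt14 of basal keratinocytes, a marker of skin epithelium, read 15.29, 15.03, 15.23 and 15.15 on the Shp2lof arrays, against 15.10, 15.03, 15.03 and 15.15 on the control arrays.

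Array Shp2lof 4 stood apart in sex-linked transcripts. Xist, the RNA of the inactive X chromosome, read 5.31, 5.09, 6.12 and 9.12 on the Shp2lof arrays, against 4.84, 9.49, 4.74 and 9.48 on the control arrays. The Y-linked gene Eif2s3y read 10.40, 10.86, 10.55 and 8.01 on the Shp2lof arrays, against 10.07, 4.52, 10.90 and 4.45 on the control arrays. Control 2 and control 4 were high in Xist and low in Eif2s3y, control 1 and control 3 and Shp2lof 1, 2 and 3 the reverse, and Shp2lof 4 had raised levels of both. The control arrays thus do not all share the same sex-linked pattern, so sex may differ among them. The patterns were not balanced between the groups, as no Shp2lof array had that of control 2 and control 4. With the Xist level as a covariate 279 genes passed. Without Shp2lof 4 the number of genes past the threshold was 154. That lay within the range of 130 (without Shp2lof 2) to 237 (without Shp2lof 3) found when any 1 array was left out. Calls lost without Shp2lof 4 are named with each result. Where a call is said below to be decided by or to rest on single arrays, leaving out any array listed ended it. The wording does not mean that a listed array was outlying. Each such fit also had fewer arrays, and whether the array itself or the smaller number caused the loss was not tested.

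The targeted gene did not separate the groups. Ptpn11 read 12.84, 12.74, 12.81 and 12.90 on the Shp2lof arrays, against 12.96, 12.74, 12.83 and 12.94 on the control arrays, and the difference of -0.05 ± 0.12 had a 95% interval of -0.29 to 0.20 (adjusted p = 0.891). A pair of other Ptpn11 probes read -0.17 and -0.26 (adjusted p = 0.568 and 0.441). Where these probes lie relative to the floxed exons is unknown here, so the levels do not check the genotype. Egr2, the gene whose locus drives the Cre, read 9.55, 9.89, 9.72 and 9.80 on the Shp2lof arrays, against 9.84, 10.14, 10.46 and 10.45 on the control arrays, a difference of -0.48 ± 0.20 that did not pass (adjusted p = 0.239).

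Of the 10232 genes, 261 passed the threshold (2.55%), 154 higher in Shp2lof (1.51%) and 107 lower (1.05%). Of these, 70 and 37 changed by more than 2-fold. The median difference over all genes was 0.02. With the signals not normalized, 149 genes passed, of which 74.5% were higher, against 59% in the normalized values. Of the 261 genes, 63 had another detected probe, and for 8 of these a probe had the opposite sign. All 261 genes had the same sign on both slides, which hold 2 arrays of each group, and the groups did not overlap for 254 of them (152 higher, 102 lower). Of all genes tested 11.5% did not overlap (6.64% higher, 4.9% lower). The 261 were called on these same arrays, so neither count is support for the calls. The same holds wherever called genes are said below not to overlap. An unadjusted p below 0.05 was reached by 1609 genes (15.7%), 8.62% higher and 7.11% lower. For 7 of the genes that rose no control array, and for 2 of those that fell no Shp2lof array, had detected the probe, so these passed the detection filter through other arrays and their folds are lower bounds.

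**Figure D1:**
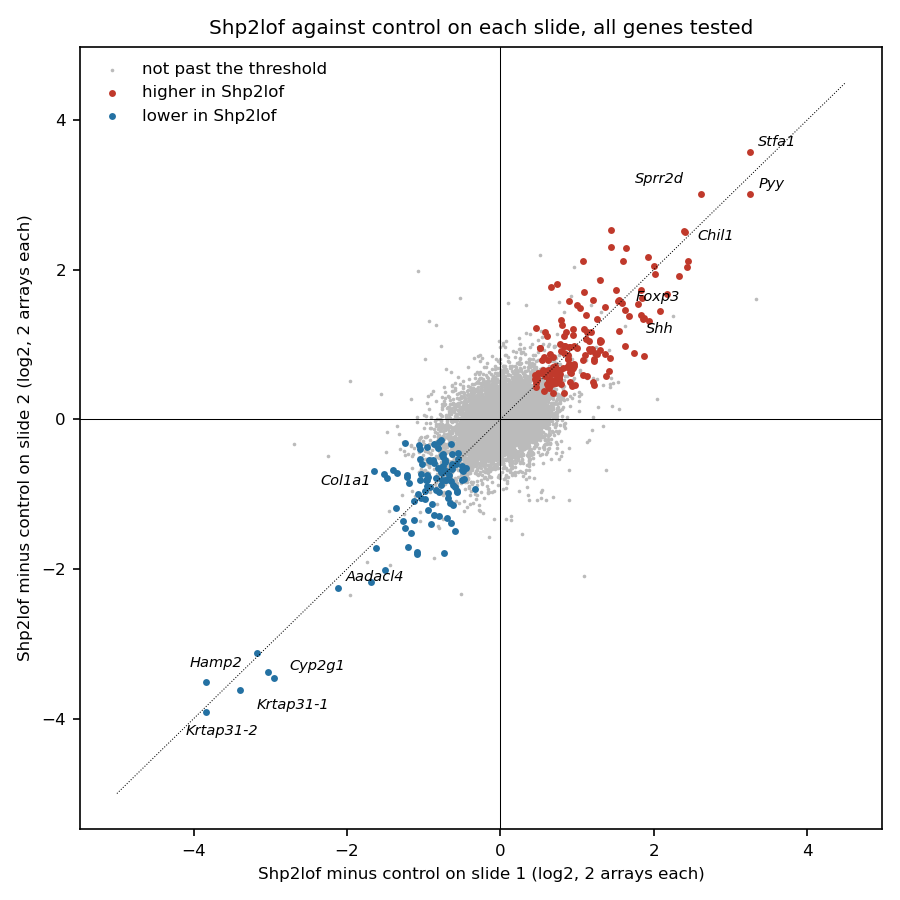
Shp2lof minus control (log2) on slide 1, on the x axis, against slide 2, on the y axis, for all 10232 genes tested. Each point is a gene, each difference is over 2 arrays of each group, and the dotted line marks equal differences. Genes past the threshold lie at the upper right (154 higher) and at the lower left (107 lower), with Krtap31-2 and Hamp2 farthest out at the lower left and Stfa1 and Pyy at the upper right.

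The pathway that Shp2 serves was followed through 2 gene lists, neither of which had a member past the threshold. Of 17 genes of the cascade from Shp2 and Ras to ERK, 0 passed in limma and 2 had an unadjusted p below 0.05, against 15.7% of all genes, with differences from -0.35 to 0.32 and a median of -0.02. Mek1 itself, the gene Map2k1, read 0.14 ± 0.24 (adjusted p = 0.842). The smallest p-values were those of Araf, a Raf kinase (0.32 ± 0.13, adjusted p = 0.221), and Rasa1, a Ras GTPase-activating protein (-0.35 ± 0.15, adjusted p = 0.268). Of 16 genes that ERK signalling induces as feedback regulators or targets, 0 passed in limma and 2 had an unadjusted p below 0.05, with a range of -0.42 to 0.35 and a median of -0.13. Spred1, an inhibitor of Ras activation, read -0.42 ± 0.14 (adjusted p = 0.143), and Epha2, a receptor tyrosine kinase, -0.40 ± 0.18 (adjusted p = 0.294). Dusp2, a phosphatase gene in neither list that was chosen after its values were seen, fell (-1.03 ± 0.17, adjusted p = 0.0024). These whole-skin levels cannot show what happened in the cells that used the driver.

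Among ligands and receptors of the ErbB family, 1 of 12 members rose and 0 fell, against 1.51% and 1.05% of all genes, and without Shp2lof 3 the count was 2. It was Epgn, which encodes epigen, an EGF receptor ligand made by epithelia, with levels of 9.81, 11.07, 10.17 and 10.38 on the Shp2lof arrays, against 8.69, 8.35, 8.19 and 8.01 on the control arrays. Every Shp2lof array lay above every control array, and the difference of 2.04 ± 0.28 was a 4.13-fold increase (adjusted p = 0.000356). Of the other ligands, Btc (betacellulin) read -0.37 (adjusted p = 0.671) and Hbegf 0.24 (adjusted p = 0.589). Of 12 fibroblast growth factors and receptors 1 fell, Fgf1 (-0.72 ± 0.19, adjusted p = 0.0471), and of 17 immediate early genes 1 fell, the zinc finger gene Klf6 (-0.60 ± 0.15, adjusted p = 0.044). Single arrays decided Fgf1 (without Shp2lof 1, 2 or 3 or any control array, adjusted p up to 0.148) and Klf6 (without any Shp2lof array or control 1, 2 or 3, adjusted p up to 0.154). Fos, the immediate early component of AP-1, read 9.17, 8.87, 8.75 and 11.60 on the Shp2lof arrays, against 8.89, 8.50, 8.59 and 8.71 on the control arrays, so that only Shp2lof 4 was far from the rest (0.93, adjusted p = 0.309).

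Small proline-rich proteins are cross-linked into the cornified envelope of stratified epithelia, and the Sprr2 genes lie side by side in the epidermal differentiation complex on chromosome 3. Of 9 members tested 4 rose, 1 fell and 4 did not pass, against 1.51% and 1.05% of all genes, with a median of 0.26. The 4 that rose, Sprr2d, Sprr2e, Sprr2f and Sprr2g, are neighbours on the chromosome, and Sprr2k, which fell, is another copy of the same family. The promoters of Sprr2d, Sprr2e, Sprr2f and Sprr2k are shown because 3 members that rose and the member that fell carry the same short words. The Sprr2g promoter was not searched. The windows run from 250 bases before to 50 after the transcription start, from RefSeq on GRCm38.p6, all on the plus strand, at chr3:92338890-92339189 (Sprr2d), chr3:92351893-92352192 (Sprr2e), chr3:92364937-92365236 (Sprr2f) and chr3:92432332-92432631 (Sprr2k). Capitals mark, from left to right, the AP-1 word TGANTCA, the octamer word ATTTGCAT and the TATA word TATAAA, each searched on both strands.
Sprr2d: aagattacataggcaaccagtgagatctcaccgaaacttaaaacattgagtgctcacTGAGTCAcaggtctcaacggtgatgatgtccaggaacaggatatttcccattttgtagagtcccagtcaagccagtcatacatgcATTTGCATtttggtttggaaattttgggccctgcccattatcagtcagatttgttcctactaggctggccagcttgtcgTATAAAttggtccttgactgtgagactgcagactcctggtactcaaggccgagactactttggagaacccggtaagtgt
Sprr2e: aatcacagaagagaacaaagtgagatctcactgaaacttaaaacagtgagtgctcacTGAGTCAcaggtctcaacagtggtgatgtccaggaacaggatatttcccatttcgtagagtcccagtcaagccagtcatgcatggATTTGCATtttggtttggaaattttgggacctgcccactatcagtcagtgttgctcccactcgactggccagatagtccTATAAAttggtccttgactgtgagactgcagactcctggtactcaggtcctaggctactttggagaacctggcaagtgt
Sprr2f: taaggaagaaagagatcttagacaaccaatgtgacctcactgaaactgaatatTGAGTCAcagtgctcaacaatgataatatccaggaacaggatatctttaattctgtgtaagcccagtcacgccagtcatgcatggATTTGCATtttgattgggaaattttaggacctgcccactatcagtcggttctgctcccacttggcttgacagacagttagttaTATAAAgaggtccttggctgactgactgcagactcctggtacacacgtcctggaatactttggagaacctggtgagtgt
Sprr2k: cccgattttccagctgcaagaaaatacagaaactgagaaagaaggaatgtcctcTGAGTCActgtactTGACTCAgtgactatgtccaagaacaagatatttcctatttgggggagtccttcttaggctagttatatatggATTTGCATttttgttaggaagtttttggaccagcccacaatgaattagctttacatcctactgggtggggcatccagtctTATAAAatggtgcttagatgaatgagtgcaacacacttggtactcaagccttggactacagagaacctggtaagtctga
All 4 windows hold each of the 3 words, and Sprr2k holds the AP-1 word at 2 places. Over all 27025 gene symbols with a window, 8.97% hold the AP-1 word, 1.97% the octamer and 15.7% the TATA word. In a global alignment Sprr2d and Sprr2e were 88.7% identical, Sprr2d and Sprr2f 72.2%, and Sprr2k was 66.9% identical to Sprr2d, 65.7% to Sprr2e and 60.7% to Sprr2f. These matches are descriptions of the letters, not of bound sites.

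The 5 Sprr2 genes that passed did not overlap between the groups, while Sprr2a1, which did not pass, overlapped. Of all genes 6.64% were higher and 4.9% lower without overlap. Sprr2d read 7.74, 8.58, 8.36 and 7.59 on the Shp2lof arrays, against 6.44, 4.63, 5.21 and 4.72 on the control arrays. Sprr2g read 7.23, 7.97, 6.96 and 7.01 on the Shp2lof arrays, against 5.54, 4.76, 4.95 and 4.80 on the control arrays. Sprr2f read 8.18, 8.88, 7.88 and 9.07 on the Shp2lof arrays, against 6.08, 6.32, 6.66 and 6.47 on the control arrays. In all 3 the lowest Shp2lof array was above the highest control array, with increases of 7.05-fold, 4.87-fold and 4.35-fold (adjusted p = 0.000502, 1.13e-05 and 0.00057). Sprr2d and Sprr2g were detected on only 2 of the 4 control arrays. Sprr2e, dimmer and detected on 0 control arrays, read 5.09, 5.78, 5.23 and 5.06 on the Shp2lof arrays, against 4.53, 4.43, 4.44 and 4.42 on the control arrays, which makes it at least 1.3-fold higher (adjusted p = 0.00296). Sprr2k went the other way, with 4.54, 4.42, 4.53 and 4.42 on the Shp2lof arrays, against 4.99, 5.17, 5.17 and 5.60 on the control arrays. No Shp2lof array detected Sprr2k, so it fell at least 1.22-fold (adjusted p = 0.0251). Leaving out single arrays ended the call of Sprr2k (without Shp2lof 1, 2 or 4 or control 2, 3 or 4, adjusted p up to 0.0824), and the count of members that rose was 4 without any 1 array. Of members outside the naming rule, chosen after their values were seen, Sprr4 read -1.21 ± 0.57 (adjusted p = 0.315), Sprr2a1 0.26 ± 0.25 (adjusted p = 0.658) and Sprr1a -0.17 ± 0.14 (adjusted p = 0.617). Sprr2 transcripts are so alike that probes may bind copies of each other, which leaves single members uncertain.

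**Figure D2:**
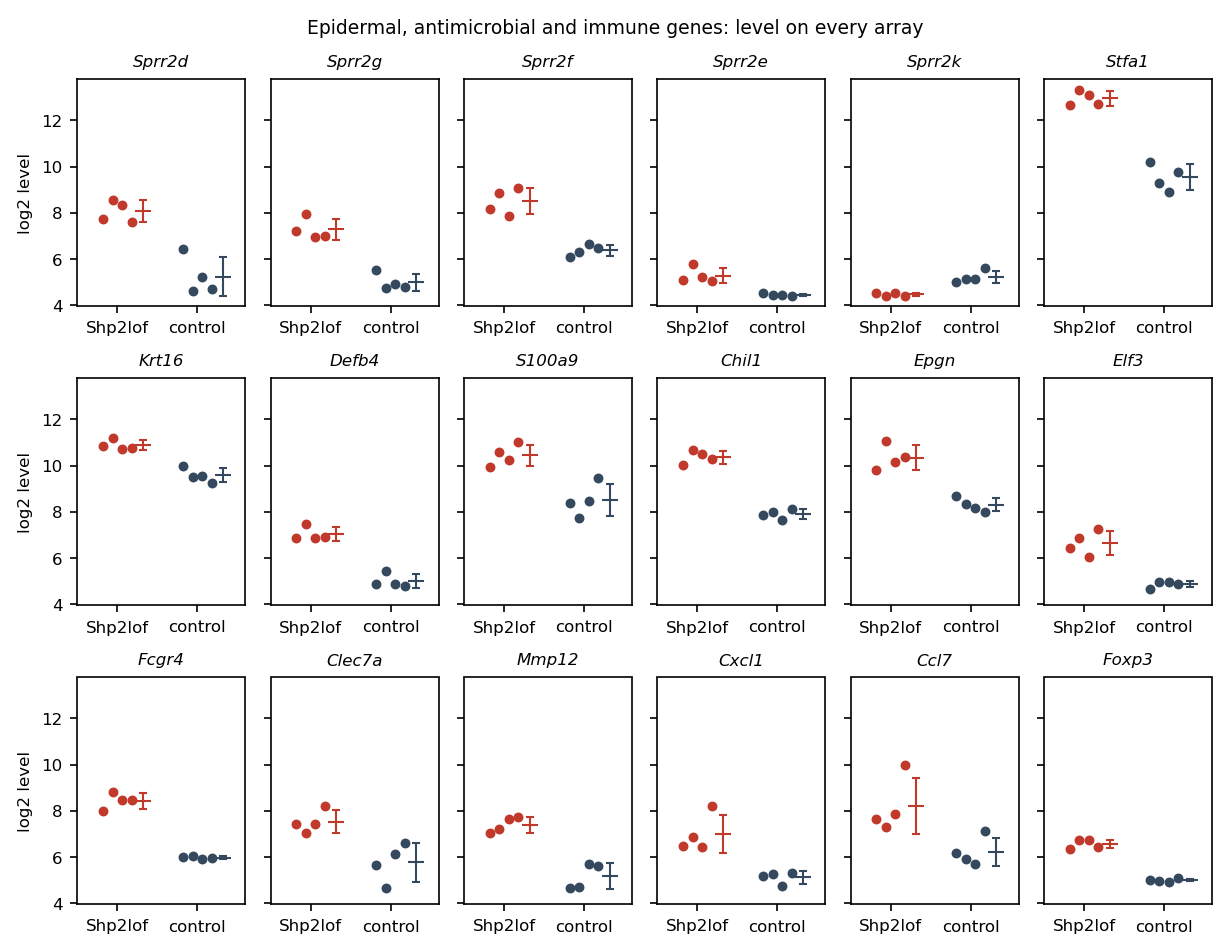
Log2 level of 18 genes on every array, Shp2lof at the left and control at the right of each panel, with the mean and SD of 4 arrays beside the points. Each panel shows 1 gene on a shared y axis. All 18 were picked from genes past the threshold on these arrays. In all of the panels the groups do not overlap, against 11.5% of all genes tested, and Sprr2k is the 1 gene shown that was lower in Shp2lof.

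Stefins inhibit cysteine proteases, and Stfa1 had the largest increase of all. It read 12.68, 13.33, 13.08 and 12.72 on the Shp2lof arrays, against 10.20, 9.31, 8.90 and 9.77 on the control arrays, 10.6-fold higher (3.41 ± 0.46, adjusted p = 0.000356). The lowest Shp2lof array was more than 2 log2 units above the highest control array. It was the 1 member of 8 stefins and cystatins that passed, against 1.51% of all genes called higher, and the family's median was 0.56. Chosen after their values were seen, Stfa2 read 1.16 ± 0.50 (adjusted p = 0.258), Cstdc4 0.86 ± 0.55 (adjusted p = 0.479) and Cstb, the broadly used stefin B, 0.36 ± 0.13 (adjusted p = 0.171). Stfa1 has close copies in the genome, so its probe may read several of them.

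Keratins of stressed, hyperproliferative or simple epithelia were higher in 2 of 9 members and lower in 0, against 1.51% and 1.05% of all genes. Krt16, the keratin of wounded and thickened epidermis, read 10.84, 11.20, 10.73 and 10.78 on the Shp2lof arrays, against 9.99, 9.52, 9.55 and 9.27 on the control arrays (1.30 ± 0.30, adjusted p = 0.0248). Krt8, a keratin of simple epithelia, read 7.91, 8.12, 8.22 and 8.49 on the Shp2lof arrays, against 7.40, 7.60, 7.28 and 7.52 on the control arrays (0.74 ± 0.16, adjusted p = 0.0181). Neither overlapped between groups, and 6.64% of all genes were likewise higher without overlap. The partners of Krt16, chosen after their values were seen, read 0.42 ± 0.33 for Krt6a (adjusted p = 0.585) and 0.87 ± 0.33 for Krt6b (adjusted p = 0.192), also without overlap. Single arrays decided Krt16 (without Shp2lof 1, 2 or 4 or control 2, 3 or 4, adjusted p up to 0.0954) and Krt8 (without Shp2lof 4 or control 3, adjusted p up to 0.069). Without Shp2lof 4 neither passed.

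Of 49 genes of normal epidermal differentiation and barrier formation 1 rose and 0 fell, a share close to the 1.51% of all genes called higher, with a median of 0.06 and 10 members higher at an unadjusted p below 0.05, against 8.62% of all genes. The 1 member was Lce1g, a late cornified envelope gene (1.06 ± 0.28, adjusted p = 0.0487), a call lost without any Shp2lof array or control 1, 2 or 3 (adjusted p up to 0.156). Chosen after their values were seen, the late envelope genes Lce3b and Lce3c read 1.57 ± 0.56 (adjusted p = 0.17) and 1.35 ± 0.60 (adjusted p = 0.279), the protease gene Klk6 1.37 ± 0.38 (adjusted p = 0.066) and Krt1, a keratin of differentiating keratinocytes, 1.13 ± 0.45 (adjusted p = 0.222). Their groups did not overlap except for Krt1, and another Lce3b probe read 0.84 (adjusted p = 0.0344). Of 15 basal keratinocyte and hemidesmosome genes 0 passed in limma and 1 had an unadjusted p below 0.05, with a range of -0.43 to 0.35. Krt14 read 0.10 ± 0.11 and its partner Krt5 0.18 ± 0.20 (adjusted p = 0.734 and 0.722), both chosen after their values were seen. The smallest p-values of that list were those of the laminin receptor gene Bcam (0.35 ± 0.16, adjusted p = 0.3) and of the linker gene Dst (-0.43 ± 0.22, adjusted p = 0.343).

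Antimicrobial proteins and alarmins are made by keratinocytes and myeloid cells at a disturbed barrier. Of 19 members 8 rose and 0 fell, against 1.51% of all genes higher, with a median of 0.54. Chil1, a chitinase-like protein of macrophages and stressed epithelia, read 10.02, 10.67, 10.51 and 10.28 on the Shp2lof arrays, against 7.87, 8.01, 7.64 and 8.15 on the control arrays (5.48-fold, adjusted p = 2.58e-05). The beta-defensin gene Defb4 read 6.88, 7.49, 6.87 and 6.90 on the Shp2lof arrays, against 4.90, 5.45, 4.88 and 4.80 on the control arrays (4.08-fold, adjusted p = 0.000526). The calprotectin subunit gene S100a9 read 9.94, 10.58, 10.25 and 11.03 on the Shp2lof arrays, against 8.41, 7.76, 8.47 and 9.46 on the control arrays (3.8-fold, adjusted p = 0.00159). In each of these every Shp2lof array was above every control array. S100a8, the other subunit, overlapped between groups and read 12.31, 12.58, 12.53 and 12.98 on the Shp2lof arrays, against 12.78, 12.50, 12.56 and 13.20 on the control arrays (-0.16 ± 0.18, adjusted p = 0.732), and another defensin gene, Defb14, read 1.15 ± 0.50 (adjusted p = 0.265); both were chosen after their values were seen. Slpi, a protease inhibitor of epithelial secretions, rose 3.33-fold (adjusted p = 0.0237), Lcn2, which binds bacterial siderophores, 2.91-fold (adjusted p = 0.0295), and the whey acidic protein gene Wfdc12 2.22-fold (adjusted p = 0.00811). Pglyrp1, a peptidoglycan recognition protein, rose 1.97-fold (adjusted p = 0.00401). Ltf, the lactoferrin gene, was detected on 0 control arrays and was at least 1.24-fold higher (adjusted p = 0.0401). Wfdc3, another whey acidic protein gene among the largest increases, read 7.90, 8.08, 7.49 and 7.27 on the Shp2lof arrays, against 6.30, 6.01, 5.80 and 6.16 on the control arrays (3.06-fold, adjusted p = 0.00878). Single arrays decided Slpi (without Shp2lof 1, 2 or 3 or control 2 or 3, adjusted p up to 0.0895), Lcn2 (without Shp2lof 2 or 3 or any control array, adjusted p up to 0.113) and Ltf (without any Shp2lof array or control 1, 2 or 3, adjusted p up to 0.144), and the count lay between 5 and 7 without any 1 array, at 5 without Shp2lof 2, Shp2lof 3, control 2 or control 3.

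Interferon-induced genes include GTPases that attack intracellular microbes, enzymes that sense viral RNA, and the machinery that cuts and loads peptides for MHC class I. Of 31 members 8 rose and 0 fell, against 1.51% and 1.05% of all genes, with a median of 0.45 and 28 of the 31 differences above 0. Those that rose were the GTPase genes Igtp, Irgm2 and Gbp2, the RNA-sensing genes Oasl2 and Oas2, the transcription factor gene Irf1, and the antigen processing genes Tap2, a peptide transporter, and Psmb9, an immunoproteasome subunit. The promoters of the 3 GTPase genes are shown because Igtp and Irgm2 are neighbours on chromosome 11 that rose together and share a stretch with the interferon words. The windows are from RefSeq on GRCm38.p6, on the plus strand, at chr11:58199306-58199605 (Igtp), chr11:58214727-58215026 (Irgm2) and chr3:142620413-142620712 (Gbp2). Capitals mark the gamma-activated site word TTCNNNGAA and the longer word of the interferon-stimulated response element, searched on both strands.
Igtp: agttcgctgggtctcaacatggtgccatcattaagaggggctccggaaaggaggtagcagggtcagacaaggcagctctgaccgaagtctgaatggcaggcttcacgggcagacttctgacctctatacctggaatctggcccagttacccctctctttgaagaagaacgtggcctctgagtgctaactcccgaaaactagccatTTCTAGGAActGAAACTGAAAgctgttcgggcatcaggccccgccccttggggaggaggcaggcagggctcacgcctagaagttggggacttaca
Irgm2: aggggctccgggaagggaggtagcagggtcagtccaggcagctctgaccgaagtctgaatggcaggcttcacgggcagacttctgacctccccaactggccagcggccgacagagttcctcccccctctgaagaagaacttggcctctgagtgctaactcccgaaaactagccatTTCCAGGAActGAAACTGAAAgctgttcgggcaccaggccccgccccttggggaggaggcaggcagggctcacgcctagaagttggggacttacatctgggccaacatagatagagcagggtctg
Gbp2: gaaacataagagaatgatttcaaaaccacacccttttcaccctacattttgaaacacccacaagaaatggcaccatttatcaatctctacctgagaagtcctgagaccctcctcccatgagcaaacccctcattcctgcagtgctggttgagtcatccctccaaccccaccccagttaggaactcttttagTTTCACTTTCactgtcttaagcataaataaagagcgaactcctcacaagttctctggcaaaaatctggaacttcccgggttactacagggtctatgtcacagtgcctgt
The response element word was in all 3 windows and in 3.99% of all gene symbols with a window. The gamma-activated word was in Igtp and Irgm2, directly before the response element, and in 9.55% of all symbols. Of the 8 members of the list that rose 6 had a window, 3 of them with the response element word, and Oasl2, Irf1 and Psmb9 had none. Of the 23 members that did not pass 19 had a window and 11 held the word, among them Irgm1 at 2 places. The gamma-activated word was in 3 of the 6 and in 6 of the 19. Igtp and Irgm2 were 72.8% identical over the alignment, against 45.4% for Igtp and Gbp2.

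Igtp read 8.32, 7.83, 7.89 and 9.11 on the Shp2lof arrays, against 6.98, 7.17, 7.06 and 6.90 on the control arrays (1.26 ± 0.28, adjusted p = 0.0188). Irgm2 read 8.12, 8.16, 8.55 and 8.996 on the Shp2lof arrays, against 7.41, 7.95, 7.72 and 7.39 on the control arrays (0.84 ± 0.21, adjusted p = 0.0413). Gbp2 read 10.06, 10.02, 9.52 and 10.60 on the Shp2lof arrays, against 9.05, 9.15, 8.80 and 8.91 on the control arrays (1.07 ± 0.27, adjusted p = 0.0387). Shp2lof 4 was the highest array in all 3, and the groups did not overlap, where 6.64% of all genes were higher without overlap. The third related GTPase gene, Irgm1, chosen after its values were seen, read 12.66, 12.33, 12.31 and 12.86 on the Shp2lof arrays, against 13.14, 12.80, 13.05 and 13.12 on the control arrays (-0.49 ± 0.19, adjusted p = 0.207), and its other probe read 0.26 (adjusted p = 0.634). Oasl2 read 7.97, 7.91, 8.43 and 8.09 on the Shp2lof arrays, against 6.83, 6.83, 6.66 and 7.06 on the control arrays (2.39-fold, adjusted p = 0.00103). Irf1 read 9.95, 10.16, 9.96 and 10.37 on the Shp2lof arrays, against 8.92, 8.95, 9.11 and 9.07 on the control arrays (2.14-fold, adjusted p = 0.000247). Its 3 further probes gave differences of 0.57, -0.11 and 0.16, none past the threshold. With the mean of its probes the Irf1 call was lost (limma, adjusted p = 0.137), so Irf1 is uncertain. Tap2 and Psmb9 each rose 1.8-fold (adjusted p = 0.00475 and 0.00901). Tap1, the partner of Tap2, read 0.83 ± 0.22 without overlap (adjusted p = 0.0526), a gene chosen after its values were seen. Oas2 rose by 0.76 (adjusted p = 0.0315). Single arrays decided Igtp (without Shp2lof 1 or 4 or control 3 or 4, adjusted p up to 0.0602), Irgm2 (without Shp2lof 2, 3 or 4 or control 1, 3 or 4, adjusted p up to 0.122), Gbp2 (without Shp2lof 1, 2 or 4 or any control array, adjusted p up to 0.117) and Oas2 (without Shp2lof 1 or 3 or control 2, 3 or 4, adjusted p up to 0.125). The count was 5 without Shp2lof 4 and lay between 4 and 8 without any 1 array, moving by over 1.5 times without Shp2lof 1, Shp2lof 4, control 3 or control 4. Ubd, a ubiquitin-like protein induced by interferon and tumour necrosis factor, read 6.53, 7.52, 6.96 and 7.10 on the Shp2lof arrays, against 5.12, 5.72, 4.87 and 4.96 on the control arrays (3.63-fold, adjusted p = 9.07e-05).

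Chemokines attract leukocytes, and 7 of 22 rose, 1 fell and 14 did not pass, against 1.51% and 1.05% of all genes called, with a median of 0.18. Cxcl1, which attracts neutrophils, read 6.49, 6.86, 6.43 and 8.21 on the Shp2lof arrays, against 5.18, 5.29, 4.74 and 5.30 on the control arrays (3.66-fold, adjusted p = 0.00475). The monocyte attractant Ccl7 read 7.64, 7.31, 7.88 and 10.01 on the Shp2lof arrays, against 6.17, 5.91, 5.72 and 7.12 on the control arrays (3.95-fold, adjusted p = 0.0268). Ccl8 and Ccl12, neighbouring genes on chromosome 11 with the same kind of target cell, rose 2.41-fold and 2.32-fold (adjusted p = 0.0226 and 0.0234). Another Ccl12 probe read 0.49 (adjusted p = 0.253). Shp2lof 4 was the highest array for all of the 7 but Ccl8. Ccl4 rose 2.63-fold from detection on 2 control arrays (adjusted p = 0.0405), Cxcl9, an interferon-induced attractant of T cells, 2.4-fold (adjusted p = 0.0268), and Ccl19, a ligand of the lymph node homing receptor, 2.22-fold (adjusted p = 0.0129). The thymic chemokine gene Ccl25 read -0.63 ± 0.16 (adjusted p = 0.0452). The list lacks the chemokine genes Ccl21b and Ccl21c, chosen after their values were seen, which also fell. They read -1.04 ± 0.25 and -1.03 ± 0.26 (adjusted p = 0.0268 and 0.044), calls that single arrays decided. Only Cxcl1 of the 7 passed without each of the 8 arrays. Single arrays decided Ccl7 (without Shp2lof 4 or control 1, 2 or 3, adjusted p up to 0.0968), Ccl4 (without Shp2lof 1, 3 or 4 or control 2, 3 or 4, adjusted p up to 0.139), Ccl8 (without Shp2lof 3 or 4 or control 1 or 3, adjusted p up to 0.0754), Cxcl9 (without Shp2lof 2 or 4 or control 1, 3 or 4, adjusted p up to 0.0969), Ccl12 (without Shp2lof 3 or 4 or control 1 or 3, adjusted p up to 0.081), Ccl19 (without Shp2lof 4, adjusted p up to 0.0511) and Ccl25 (without any Shp2lof array or control 2, 3 or 4, adjusted p up to 0.153). Without Shp2lof 4 only Cxcl1 of the 7 passed. The Cxcl1 promoter is shown for its NF-kB word, in capitals (plus and minus strand matches overlap), at chr5:90890995-90891294 on the plus strand of GRCm38.p6 in RefSeq.
Cxcl1: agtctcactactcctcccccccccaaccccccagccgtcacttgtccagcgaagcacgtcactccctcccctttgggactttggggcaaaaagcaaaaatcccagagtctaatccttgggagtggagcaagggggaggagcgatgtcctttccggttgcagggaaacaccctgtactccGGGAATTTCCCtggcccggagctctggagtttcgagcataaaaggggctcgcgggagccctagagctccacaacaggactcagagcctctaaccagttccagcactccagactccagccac
That word was in 1.63% of all gene symbols with a window. Of 12 interleukin 1 family genes and receptors 1 rose, the interleukin 18 receptor gene Il18r1 (6.83, 6.91, 6.60 and 6.39 on the Shp2lof arrays, against 4.66, 5.34, 5.70 and 5.60 on the control arrays, adjusted p = 0.0268). That call was lost without Shp2lof 1, 2 or 3 or control 1 or 2 (adjusted p up to 0.0963). Il1b, chosen after its values were seen, read 0.84 ± 0.31 (adjusted p = 0.182).

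**Figure D3:**
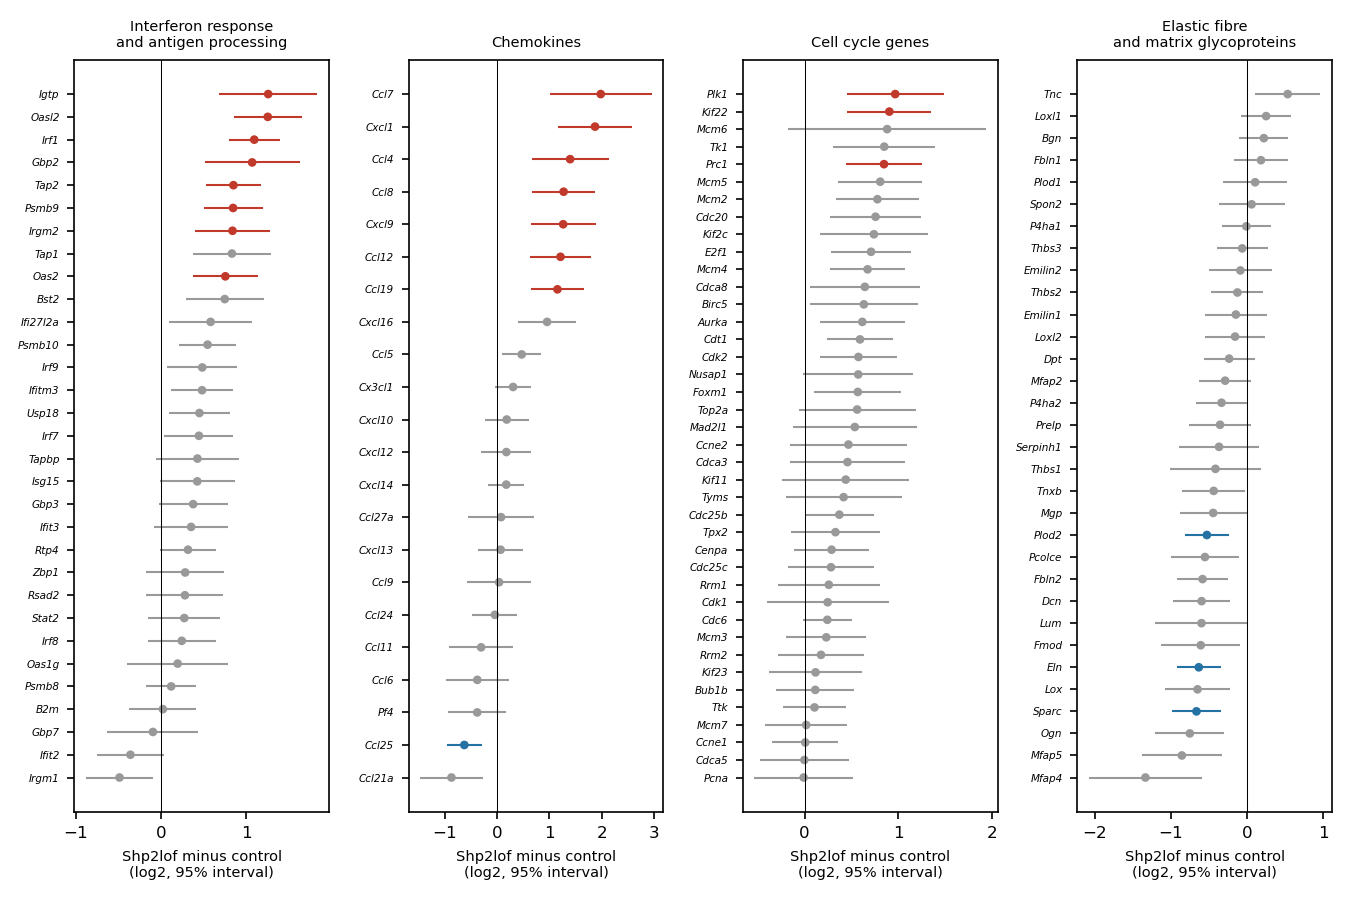
Shp2lof minus control (log2, points) with 95% intervals (lines) for every tested member of 4 lists, on the x axis, ordered by size down the y axis. Red members were higher and blue members lower past the threshold, 8 and 0 of the 31 interferon genes, 7 and 1 of the 22 chemokines, 3 and 0 of the 40 cell cycle genes and 0 and 3 of the 32 matrix genes.

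Markers of immune cells were measured in whole skin, where more cells of a type and more RNA per cell cannot be told apart, here and for every cell type named. Of 23 macrophage and dendritic cell markers 5 rose and 0 fell, against 1.51% and 1.05% of all genes, with a median of 0.14, and the count was 5 without any 1 array. Fcgr4, an Fc receptor of monocytes and neutrophils, read 7.995, 8.82, 8.49 and 8.47 on the Shp2lof arrays, against 5.996, 6.04, 5.93 and 5.99 on the control arrays (5.48-fold, adjusted p = 7.33e-06). Mmp12, the elastin-cutting protease of macrophages, read 7.03, 7.21, 7.67 and 7.72 on the Shp2lof arrays, against 4.68, 4.69, 5.71 and 5.61 on the control arrays (4.7-fold, adjusted p = 5.4e-05), from detection on 2 control arrays. The C-type lectin genes Clec7a and Clec4n, receptors for fungal sugars, read 1.77 ± 0.32 and 1.40 ± 0.23 (adjusted p = 0.00475 and 0.0024). Another Clec7a probe read -0.03 (adjusted p = 0.942), so Clec7a is uncertain. Aif1, a macrophage activation marker, rose 2.01-fold (adjusted p = 0.00847), with another probe at 0.39 (adjusted p = 0.494). The summed level of the whole list overlapped, at 3639 to 6957 in Shp2lof and 3337 to 5048 in control skin on the linear scale, and its members Fcgr1, Itgam, Itgax and Msr1 were detected on none of the 8 arrays. Of 7 MHC class II genes 0 passed in limma, and 0 had an unadjusted p below 0.05. H2-DMb1 read 0.47 ± 0.25 (adjusted p = 0.373) and H2-Ab1 0.33 ± 0.19 (adjusted p = 0.428).

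Of 7 T cell markers tested 2 rose, Foxp3 and Ctla4, against 1.51% of all genes. Foxp3, the transcription factor that defines regulatory T cells, read 6.37, 6.72, 6.75 and 6.46 on the Shp2lof arrays, against 5.03, 4.99, 4.95 and 5.09 on the control arrays (2.95-fold, adjusted p = 2.58e-05). The 4 control arrays lay close together and far below every Shp2lof array. Another Foxp3 probe read 0.57 (adjusted p = 0.0577). Ctla4, an inhibitory receptor of T cells, read 6.09, 5.91, 5.50 and 5.97 on the Shp2lof arrays, against 4.87, 4.70, 5.47 and 5.07 on the control arrays (0.84 ± 0.21, adjusted p = 0.0415), and the call was lost without Shp2lof 1, 2 or 4 or control 1, 2 or 4 (adjusted p up to 0.144). The summed T cell level overlapped, at 2803 to 4108 in Shp2lof and 2461 to 3545 in control skin, and Cd8a, Cd28 and Il2rb were detected on none of the 8 arrays. Among genes in no list, chosen after their values were seen, the lymphocyte genes Tnfrsf4 (1.06 ± 0.19, adjusted p = 0.00465), Cd27 (1.04 ± 0.18, adjusted p = 0.00382) and Gpr171 (1.01 ± 0.23, adjusted p = 0.0209) also rose. Single arrays decided Gpr171 (without Shp2lof 1, 2 or 4 or control 2, adjusted p up to 0.0769). Of 4 neutrophil markers tested S100a9 alone rose, and Mpo, Retnlg, Cxcr2 and Mmp8 were detected on none of the 8 arrays. None of the 5 B cell markers on the array passed the detection filter. Of 7 mast cell markers 0 passed in limma, 3 were lower at an unadjusted p below 0.05, against 7.11% of all genes, and 4 had a difference above 0. Their differences lay between -0.87 and 0.48, with a median of 0.01. The mast cell protease genes Mcpt4 and Cpa3 read -0.87 ± 0.26 (adjusted p = 0.0856) and -0.76 ± 0.34 (adjusted p = 0.284). The part that these cell types have in the other results was not tested.

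Several genes with no place in skin immunity or barrier lists were among the largest increases. Pyy encodes peptide YY, best known as a gut hormone, and read 8.80, 9.28, 8.77 and 9.29 on the Shp2lof arrays, against 5.06, 6.50, 6.07 and 5.96 on the control arrays (8.77-fold, adjusted p = 1.16e-06). All Shp2lof arrays were more than 2 log2 units above all control arrays. Cartpt, a neuropeptide gene, read 6.49, 6.12, 5.60 and 6.09 on the Shp2lof arrays, against 4.51, 4.34, 4.40 and 4.58 on the control arrays, was detected on 0 control arrays and was at least 2.23-fold higher (adjusted p = 0.0116), with another probe at 0.93 (adjusted p = 0.0824). These were 2 of the 5 peptide genes tested, against 1.51% of all genes called higher. The osteocalcin genes Bglap and Bglap2, neighbours on chromosome 3 and best known from bone, read 6.67, 7.09, 7.07 and 7.38 on the Shp2lof arrays, against 5.10, 5.38, 4.998 and 4.87 on the control arrays for Bglap and 7.25, 7.62, 7.20 and 7.996 on the Shp2lof arrays, against 5.29, 5.54, 5.67 and 5.64 on the control arrays for Bglap2. They rose 3.9-fold and 3.94-fold (adjusted p = 0.000208 and 0.00401), their probes may bind both transcripts, and a further Bglap probe read 0.93 (adjusted p = 0.0304). Elf3, an epithelial transcription factor of the ETS family, read 6.46, 6.88, 6.04 and 7.28 on the Shp2lof arrays, against 4.67, 4.99, 4.98 and 4.89 on the control arrays (3.44-fold, adjusted p = 0.000356), with another probe at 0.55 (adjusted p = 0.0403). Cps1, the mitochondrial carbamoyl phosphate synthetase of the urea cycle, read 6.62, 7.06, 6.40 and 6.54 on the Shp2lof arrays, against 5.03, 5.07, 4.70 and 5.16 on the control arrays (3.17-fold, adjusted p = 7.85e-05). AA467197 and Teddm3 rose 3.09-fold and 3.07-fold (adjusted p = 0.0103 and 0.000293).

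Single genes of metabolism and transport rose as well, where 1.51% of all genes were called higher and 1.05% lower. Slc2a1, the glucose transporter GLUT1 of keratinocytes, read 10.002, 10.74, 10.02 and 10.20 on the Shp2lof arrays, against 8.70, 8.79, 8.94 and 9.33 on the control arrays (2.47-fold, adjusted p = 0.000212), the 1 of 16 glucose transport and glycolysis genes that passed. Aqp3, the aquaglyceroporin of the epidermis, read 10.24, 9.83, 9.98 and 9.89 on the Shp2lof arrays, against 9.10, 9.32, 8.89 and 8.77 on the control arrays (1.96-fold, adjusted p = 0.00492), the 1 of 7 aquaporins that passed. Aqp4, chosen after its values were seen, read -0.97 ± 0.28 (adjusted p = 0.0783). Timp1, an inhibitor of metalloproteinases, read 8.73, 9.49, 9.33 and 9.71 on the Shp2lof arrays, against 7.74, 7.88, 7.69 and 7.64 on the control arrays (2.99-fold, adjusted p = 0.000247), and its other probe rose by 1.5. Of 18 metalloproteinases and inhibitors, Mmp12 and Timp1 rose and Mmp2, the gelatinase of fibroblasts, fell (-0.73 ± 0.18, adjusted p = 0.0355), a call lost without any Shp2lof array or control 2, 3 or 4 (adjusted p up to 0.128).

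Hair keratin-associated proteins embed the keratin filaments of the hair shaft, and 3 of 28 members fell and 0 rose, against 1.05% of all genes lower. The family's median was -0.20, at 0.03 on slide 1 and -0.42 on slide 2. Krtap31-1 and Krtap31-2 are neighbours on chromosome 11, and their promoters, at chr11:99907670-99907969 and chr11:99936041-99936340 on the plus strand of GRCm38.p6 in RefSeq, are shown because the pair moved together. Capitals mark the AP-1 word TGANTCA and the TATA word TATAAA, searched on both strands.
Krtap31-1: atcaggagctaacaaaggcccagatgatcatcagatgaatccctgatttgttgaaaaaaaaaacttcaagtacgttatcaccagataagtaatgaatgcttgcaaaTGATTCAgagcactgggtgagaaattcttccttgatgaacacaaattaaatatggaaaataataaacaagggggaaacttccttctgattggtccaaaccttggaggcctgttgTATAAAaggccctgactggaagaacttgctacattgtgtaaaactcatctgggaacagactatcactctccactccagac
Krtap31-2: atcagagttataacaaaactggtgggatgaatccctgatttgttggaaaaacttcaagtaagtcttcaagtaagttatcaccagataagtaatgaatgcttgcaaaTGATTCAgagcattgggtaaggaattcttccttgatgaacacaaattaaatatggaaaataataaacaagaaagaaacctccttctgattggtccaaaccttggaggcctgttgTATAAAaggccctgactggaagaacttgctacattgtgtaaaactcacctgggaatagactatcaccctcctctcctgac
The windows were 86.7% identical over their alignment, with both words at the same distance from the start. Krtap31-2 read 7.15, 7.50, 6.84 and 7.99 on the Shp2lof arrays, against 11.85, 10.47, 11.69 and 10.97 on the control arrays (14.7-fold lower, adjusted p = 4.35e-05). Krtap31-1 read 5.93, 6.03, 6.32 and 6.66 on the Shp2lof arrays, against 9.92, 8.85, 10.29 and 9.94 on the control arrays (11.4-fold lower, adjusted p = 0.000356). The highest Shp2lof array was more than 2 log2 units below the lowest control array in each, and the probes of this pair may bind both transcripts. Krtap13-1, far more abundant, read 12.04, 12.31, 12.44 and 12.17 on the Shp2lof arrays, against 12.94, 12.93, 13.23 and 12.99 on the control arrays (-0.78 ± 0.15, adjusted p = 0.00901). Krtap1-4, chosen after its values were seen, read -0.80 ± 0.34 (adjusted p = 0.251).

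Hair shaft keratins, with their regulators, had 0 of 18 members past the threshold in limma, 5 lower at an unadjusted p below 0.05, against 7.11% of all genes, and a median of -0.21. Without Shp2lof 3, 1 passed. The shaft keratin Krt33a read 14.29, 14.44, 14.41 and 13.91 on the Shp2lof arrays, against 14.68, 14.73, 14.73 and 14.64 on the control arrays without overlap (-0.43 ± 0.13, adjusted p = 0.106), and Foxn1, the regulator of shaft differentiation, -0.56 ± 0.17 (adjusted p = 0.0979). Of 12 inner root sheath genes 0 passed and 4 were lower at an unadjusted p below 0.05, with the same 7.11% over all genes, and Padi1, which citrullinates sheath proteins, read -0.46 ± 0.19 (adjusted p = 0.243), and the sheath keratin gene Krt26 -0.45 ± 0.19 (adjusted p = 0.244). Of 12 outer root sheath and follicle stem cell genes 0 passed and 1 had an unadjusted p below 0.05. Krt15, a keratin of the bulge, read 10.48, 10.61, 10.30 and 9.63 on the Shp2lof arrays, against 11.36, 11.23, 10.66 and 11.92 on the control arrays without overlap (-1.04 ± 0.37, adjusted p = 0.17), and Gas6 0.31 ± 0.21 (adjusted p = 0.497).

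Among signals that drive the hair cycle, single members passed. Shh, the hedgehog ligand of the growing hair bulb, read 8.86, 8.62, 8.38 and 8.07 on the Shp2lof arrays, against 7.26, 6.88, 6.94 and 6.75 on the control arrays (2.88-fold, adjusted p = 4.35e-05), and its other probe read 0.85 (adjusted p = 0.0236). It was the 1 of 8 hedgehog pathway genes that passed. The receptor and target gene Ptch1, chosen after its values were seen, read 0.28 ± 0.17 (adjusted p = 0.428). Of 41 Wnt pathway genes 4 rose and 1 fell, against 1.51% and 1.05% of all genes, with a median of -0.01. The receptor gene Fzd10 read 10.34, 10.25, 10.04 and 9.83 on the Shp2lof arrays, against 9.54, 9.39, 9.33 and 8.75 on the control arrays (0.86 ± 0.20, adjusted p = 0.0259). The ligand gene Wnt4 read 8.88, 8.51, 8.49 and 8.45 on the Shp2lof arrays, against 8.25, 7.92, 7.43 and 7.29 on the control arrays (0.86 ± 0.21, adjusted p = 0.0304). Porcn, the enzyme that adds the lipid of Wnt ligands, rose by 0.67 (adjusted p = 0.0116), and the inhibitor gene Nkd2 by 0.58 (adjusted p = 0.0355). Wnt5a, a ligand of the non-canonical branch, read 9.42, 9.11, 9.20 and 9.26 on the Shp2lof arrays, against 9.82, 9.72, 9.85 and 9.96 on the control arrays (-0.59 ± 0.14, adjusted p = 0.0268). Other probes of Wnt4 and Porcn read 0.47 and 0.41 and did not pass. The groups did not overlap in any of the 5 called, where 6.64% of all genes were higher and 4.9% lower without overlap. Single arrays decided Fzd10 (without Shp2lof 1 or 2 or control 3 or 4, adjusted p up to 0.0916), Wnt4 (without any Shp2lof array or control 3 or 4, adjusted p up to 0.115), Nkd2 (without any Shp2lof array or control 2, 3 or 4, adjusted p up to 0.125) and Wnt5a (without Shp2lof 2, 3 or 4 or control 1, 3 or 4, adjusted p up to 0.0967). The count of higher Wnt genes lay between 1 and 4 without any 1 array. Of 38 genes of BMP, TGF-beta and activin signalling 2 fell and 0 rose, against 1.05% and 1.51% of all genes, with a median of -0.21. The BMP antagonist ligand gene Bmp3 read 7.02, 7.15, 7.28 and 7.51 on the Shp2lof arrays, against 7.97, 7.76, 7.84 and 8.25 on the control arrays (-0.71 ± 0.16, adjusted p = 0.0208), and the ligand gene Tgfb2 5.50, 5.55, 5.92 and 5.67 on the Shp2lof arrays, against 6.44, 6.11, 6.40 and 6.43 on the control arrays (-0.68 ± 0.16, adjusted p = 0.0309). Single arrays decided Bmp3 (without Shp2lof 1 or 2 or control 4, adjusted p up to 0.0763) and Tgfb2 (without Shp2lof 1, 2 or 4 or control 1, 3 or 4, adjusted p up to 0.103).

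Of 40 cell cycle genes 3 rose and 0 fell, against 1.51% and 1.05% of all genes, with 38 of 40 differences above 0, a median of 0.50 (0.38 on slide 1 and 0.57 on slide 2) and 17 members higher at an unadjusted p below 0.05, against 8.62% of all genes. Those that rose were genes of mitosis, the kinase gene Plk1 (7.38, 7.46, 7.34 and 7.41 on the Shp2lof arrays, against 6.71, 6.21, 6.58 and 6.21 on the control arrays, adjusted p = 0.0445), the chromosome-binding motor gene Kif22 (0.90 ± 0.21, adjusted p = 0.0268) and Prc1, which bundles spindle microtubules (0.85 ± 0.19, adjusted p = 0.0241). Each call was lost without single arrays, that of Plk1 (without any Shp2lof array or any control array, adjusted p up to 0.139), Kif22 (without Shp2lof 1, 2 or 4 or control 2, 3 or 4, adjusted p up to 0.0963) and Prc1 (without Shp2lof 1, 2 or 4 or control 2 or 3, adjusted p up to 0.0827). Without Shp2lof 4 the count was 0, and with slide as a block it was 6. Chosen after their values were seen, the replication helicase gene Mcm6 read 0.88 ± 0.50 (adjusted p = 0.415) and the thymidine kinase gene Tk1 0.85 ± 0.26 (adjusted p = 0.0965). Among genes in no list, likewise chosen, the replication fork gene Timeless (0.60, adjusted p = 0.0487) and the mitotic gene Incenp (0.70, adjusted p = 0.0405) rose. Leaving out a single array ended the calls of Timeless and Incenp. Timeless was lost without any Shp2lof array or control 1, 2 or 3 (adjusted p up to 0.147). Incenp was lost whichever array was left out (adjusted p up to 0.136), so no particular array decided it.

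Genes of sebaceous glands, which fill with lipid and secrete it onto the hair, were lower in 2 of 16 members and higher in 0, against 1.05% and 1.51% of all genes, with a median of -0.26. Cyp2g1, a cytochrome P450 gene, read 6.67, 6.89, 6.43 and 7.18 on the Shp2lof arrays, against 9.19, 10.27, 10.12 and 10.42 on the control arrays (9.22-fold lower, adjusted p = 5.34e-05), and its other probe read -3.09. Awat2, which makes wax esters, read 5.36, 5.77, 5.13 and 5.67 on the Shp2lof arrays, against 7.01, 7.48, 7.10 and 8.04 on the control arrays (3.79-fold lower, adjusted p = 0.0178). The Awat2 call was lost without control 4 (adjusted p up to 0.06). Without Shp2lof 4 the list's count was 3. Scd1, the abundant sebocyte desaturase chosen after its values were seen, read 12.08, 12.18, 12.31 and 13.000 on the Shp2lof arrays, against 12.81, 13.05, 13.33 and 12.93 on the control arrays (-0.63 ± 0.20, adjusted p = 0.11), overlapping through Shp2lof 4. The summed level of the list was 13681 to 17979 in Shp2lof and 17671 to 21387 in control skin, and Scd3, Far2, Hao2 and Mogat2 were detected on none of the 8 arrays.

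Lipid enzymes outside the gland list showed single decreases, where 1.05% of all genes were called lower. Elovl6, the elongase of C16 fatty acids, read 10.32, 9.94, 9.95 and 9.46 on the Shp2lof arrays, against 11.32, 11.42, 11.20 and 11.13 on the control arrays (2.55-fold lower, adjusted p = 0.0209), the 1 of 21 fatty acid synthesis genes that passed. Of 29 ceramide and sphingolipid enzymes 2 fell, the fatty acid 2-hydroxylase gene Fa2h, at 10.02, 10.23, 9.88 and 9.76 on the Shp2lof arrays, against 10.99, 11.01, 11.18 and 11.01 on the control arrays (2.11-fold lower, adjusted p = 0.0128), and the sphingomyelin synthase gene Sgms1 (-0.88 ± 0.23, adjusted p = 0.0487). Of 22 genes of cholesterol synthesis and transport 1 fell, the phospholipid remodelling gene Lpcat3 (-0.62 ± 0.13, adjusted p = 0.0171), with another probe at -0.45 (adjusted p = 0.165). Single arrays decided Elovl6 (without Shp2lof 2 or 4 or control 1, 2 or 3, adjusted p up to 0.0723), Sgms1 (without any Shp2lof array or control 2, 3 or 4, adjusted p up to 0.153) and Lpcat3 (without control 1 or 2, adjusted p up to 0.0597).

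Esterases and detoxifying oxidases were lower in 5 of 39 members and higher in 0, against 1.05% and 1.51% of all genes, with a median of -0.19 and 30 of 39 differences below 0. Beside Cyp2g1, the esterase-like gene Aadacl4 read 6.001, 5.72, 5.95 and 6.28 on the Shp2lof arrays, against 7.98, 7.98, 8.17 and 8.56 on the control arrays (4.54-fold lower, adjusted p = 0.00235). Aldh3a1, which oxidizes aldehydes, read 8.23, 8.18, 7.92 and 7.54 on the Shp2lof arrays, against 9.52, 9.89, 9.60 and 9.89 on the control arrays (3.38-fold lower, adjusted p = 0.000861). The carboxylesterase gene Ces1d read 7.99, 8.04, 8.26 and 7.73 on the Shp2lof arrays, against 9.54, 9.72, 9.69 and 9.75 on the control arrays (3.18-fold lower, adjusted p = 0.0208), and the flavin monooxygenase gene Fmo5 fell 2.22-fold (adjusted p = 0.0107). The retinaldehyde dehydrogenase gene Aldh1a1, chosen after its values were seen, read -0.53 ± 0.30 (adjusted p = 0.413). The count was 4 or 5 without any 1 array, and the Ces1d call was lost without Shp2lof 1, 2 or 4 or control 2, 3 or 4 (adjusted p up to 0.0625). Further enzymes and carriers among the 25 largest decreases were the steroid hydroxylase gene Cyp17a1 (-1.43 ± 0.30, adjusted p = 0.017), the uridine phosphorylase gene Upp1 (-1.46 ± 0.25, adjusted p = 0.00381, with other probes at -1.49 and -1.51) and the fatty acid-binding protein gene Fabp9 (-1.34 ± 0.18, adjusted p = 0.000378). Ppargc1a, a coactivator of mitochondrial genes, fell 2.18-fold and was detected on 2 of 4 Shp2lof arrays (adjusted p = 0.0107). The Cyp17a1 call was lost without Shp2lof 4 or control 4 (adjusted p up to 0.058).

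**Figure D4:**
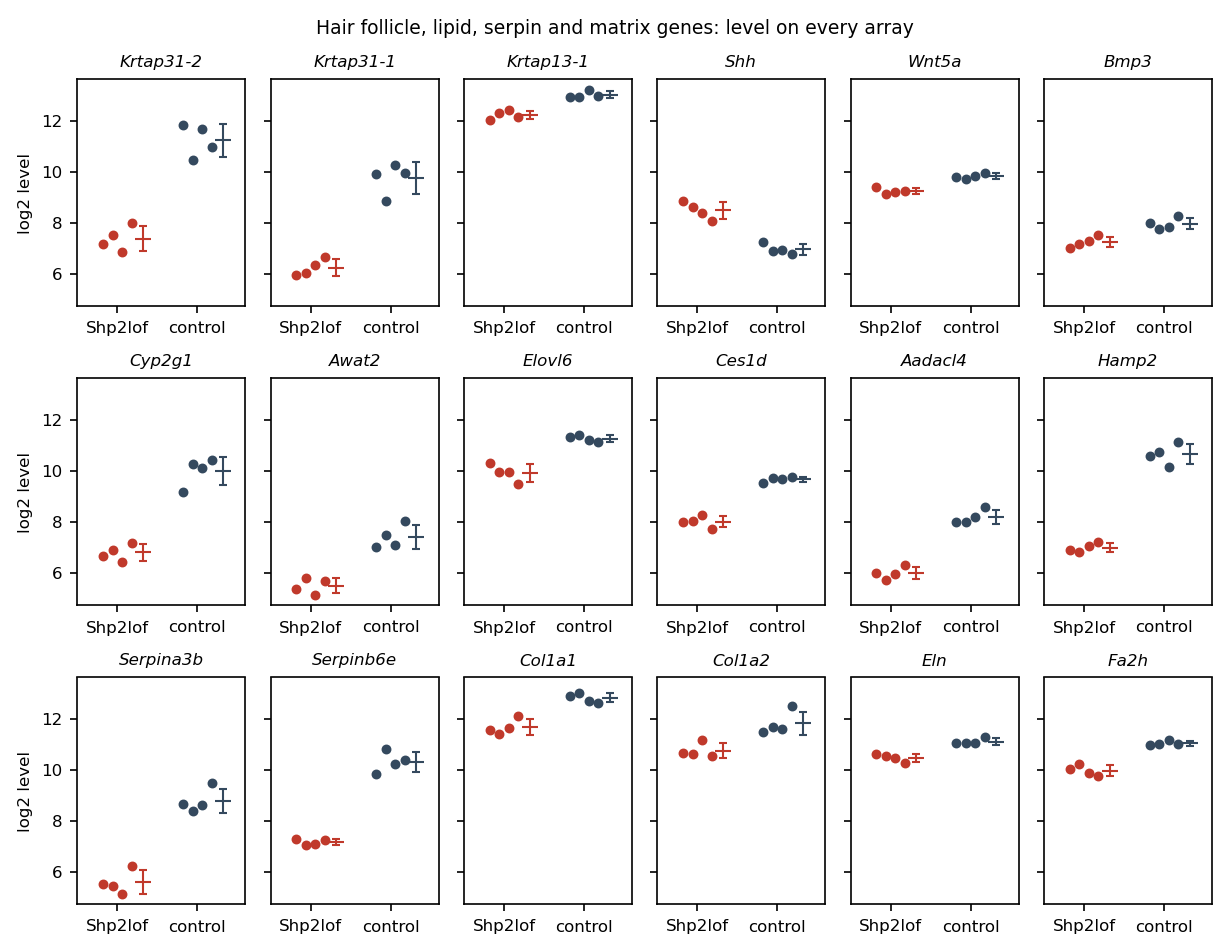
Log2 level of 18 genes of the hair follicle, of lipid and detoxifying enzymes, of serpins and of matrix on every array, Shp2lof at the left and control at the right of each panel, with the mean and SD of 4 arrays beside the points. All 18 were picked from genes past the threshold on these arrays. The groups do not overlap in any panel, against 11.5% of all genes tested, and Shh is the 1 gene shown that was higher in Shp2lof.

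Hepcidin, the peptide hormone that holds back iron release from cells, has a close relative in Hamp2. Hamp2 read 6.88, 6.80, 7.06 and 7.21 on the Shp2lof arrays, against 10.60, 10.74, 10.17 and 11.12 on the control arrays (12.8-fold lower, adjusted p = 5.12e-05), with a gap of nearly 3 log2 units between the groups. Of 15 iron genes Hamp2 fell and Lcn2 rose, against 1.05% and 1.51% of all genes, the Lcn2 call resting on single arrays as above. The transferrin receptor gene Tfrc, chosen after its values were seen, read 11.26, 11.61, 11.37 and 11.38 on the Shp2lof arrays, against 10.23, 10.94, 10.66 and 10.28 on the control arrays (0.88 ± 0.25, adjusted p = 0.0672). Also chosen so, Steap1 and Steap2, metalloreductase genes side by side on chromosome 5, rose by 0.89 and 0.71 (adjusted p = 0.00134 and 0.0124), with single arrays deciding Steap2 (without Shp2lof 2 or control 3, adjusted p up to 0.0531). Of 6 globin and erythroid genes 1 fell, the anion exchanger gene Slc4a1 (-0.76 ± 0.16, adjusted p = 0.0158), a call lost without Shp2lof 1 or control 3 or 4 (adjusted p up to 0.0589), and the list's sum was 11690 to 18542 in Shp2lof and 10593 to 18960 in control skin.

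Serpins, which inhibit proteases, moved in both directions, with 4 of 26 higher and 2 lower, against 1.51% and 1.05% of all genes. Serpina3b read 5.52, 5.45, 5.12 and 6.23 on the Shp2lof arrays, against 8.66, 8.37, 8.61 and 9.48 on the control arrays (9.19-fold lower, adjusted p = 0.000466). Serpinb6e read 7.28, 7.03, 7.09 and 7.26 on the Shp2lof arrays, against 9.84, 10.82, 10.23 and 10.37 on the control arrays (8.88-fold lower, adjusted p = 0.000374). The groups stood more than 2 log2 units apart in each. Serpinb3a, a squamous cell serpin, read 5.95, 6.60, 6.29 and 5.79 on the Shp2lof arrays, against 4.44, 4.41, 4.63 and 4.76 on the control arrays, was detected on 0 control arrays and was at least 2.37-fold higher (adjusted p = 5.12e-05). Serpinb12, its neighbour on chromosome 1, read 7.51, 7.84, 7.55 and 7.08 on the Shp2lof arrays, against 6.15, 5.71, 5.97 and 6.88 on the control arrays (2.49-fold, adjusted p = 0.0268). Serpinb3d, a close copy of Serpinb3a chosen after its values were seen, read 0.37 ± 0.11 (adjusted p = 0.0967) and was also detected on 0 control arrays. Serpina3n, an acute phase serpin, rose 2.27-fold with overlap, as control 3 at 10.47 lay above Shp2lof 1 at 10.43 (adjusted p = 0.0188). Serpina10 rose 1.91-fold from detection on 1 control array (adjusted p = 0.00129). Single arrays decided Serpinb12 (without Shp2lof 1, 2 or 3 or control 1, 2 or 3, adjusted p up to 0.107) and Serpina3n (without Shp2lof 2 or 4 or control 1 or 4, adjusted p up to 0.0616), and the count of higher members was 2 or 3 without any 1 array, at 2 without Shp2lof 2 or control 1. Serpina3 and Serpinb copies are alike, and a probe for 1 copy may read others.

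Collagens and elastic fibres give the dermis its strength. Of 26 collagen genes 2 fell and 0 rose, against 1.05% and 1.51% of all genes, the 2 chains of collagen I, while the family's median was -0.06. Col1a1 read 11.58, 11.40, 11.66 and 12.13 on the Shp2lof arrays, against 12.92, 13.03, 12.72 and 12.65 on the control arrays (2.2-fold lower, adjusted p = 0.0024). Col1a2 read 10.66, 10.64, 11.18 and 10.53 on the Shp2lof arrays, against 11.49, 11.69, 11.62 and 12.51 on the control arrays (2.11-fold lower, adjusted p = 0.0286). Col3a1, the fibrillar collagen that goes with them and was chosen after its values were seen, read 11.05, 11.08, 12.08 and 12.23 on the Shp2lof arrays, against 12.02, 11.96, 12.64 and 12.91 on the control arrays with overlap (-0.78 ± 0.26, adjusted p = 0.135), higher on both groups' slide 2 arrays. With slide as a block Col3a1 passed (limma, adjusted p = 0.0343). Of 32 elastic fibre and matrix glycoprotein genes 3 fell and 0 rose, against the same shares, and 26 of 32 differences were below 0, with a median of -0.36. The matrix glycoprotein gene Sparc read 13.11, 12.92, 13.46 and 13.61 on the Shp2lof arrays, against 13.77, 14.18, 13.88 and 13.92 on the control arrays (-0.66 ± 0.15, adjusted p = 0.0248), and its other probe read -1.12. Eln, the elastin gene, read 10.62, 10.55, 10.48 and 10.26 on the Shp2lof arrays, against 11.07, 11.04, 11.04 and 11.29 on the control arrays (-0.63 ± 0.14, adjusted p = 0.0188), and the lysyl hydroxylase gene Plod2 read -0.53 ± 0.14 (adjusted p = 0.0489). The largest difference of the list did not pass, that of the microfibril gene Mfap4 (10.27, 9.79, 9.58 and 10.63 on the Shp2lof arrays, against 11.44, 11.52, 11.08 and 11.56 on the control arrays, adjusted p = 0.0537), chosen after its values were seen. Single arrays decided Col1a2 (without Shp2lof 1, 2 or 4 or control 2, 3 or 4, adjusted p up to 0.0954), Sparc (without Shp2lof 1 or 2 or control 2, 3 or 4, adjusted p up to 0.0995), Eln (without Shp2lof 4 or control 4, adjusted p up to 0.0636) and Plod2 (without Shp2lof 1, 2 or 4 or any control array, adjusted p up to 0.162), and the count of lower matrix genes lay between 0 and 5 without any 1 array, within 1.5 times of 3 only without Shp2lof 4 or control 1.

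Schwann cells are among the cells in which Krox20 is active. Of 14 Schwann cell and myelin genes 13 had a difference below 0, with a median of -0.31. Lists of other tissues leaned the same way, with 24 of 27 skeletal muscle, 17 of 18 hair shaft and 26 of 28 keratin-associated protein genes below 0. By contrast, 38 of 40 cell cycle genes lay above 0. The list's summed level did not overlap, at 3706 to 4341 in Shp2lof and 5823 to 6637 in control skin. That sum includes Fa2h, with a mean log2 level of 9.97 in Shp2lof and 11.05 in control skin. Only Fa2h fell past the threshold, against 1.05% of all genes, and sebaceous and epidermal cells use this gene too. Without Shp2lof 3 the count was 2. At an unadjusted p below 0.05 in limma, 5 of the 14 were lower and 1 higher, against 7.11% and 8.62% of all genes. Without overlap, 5 were lower and 1 higher, against 4.9% and 6.64% of all genes. Mbp, the myelin basic protein gene chosen after its values were seen, read 8.02, 7.87, 8.30 and 8.32 on the Shp2lof arrays, against 8.94, 9.19, 9.21 and 9.47 on the control arrays without overlap (-1.07 ± 0.29, adjusted p = 0.0593), and its other probe read -0.23 (adjusted p = 0.677). The members S100b, Gfap, Cdh19, Gjc3, Mobp and Cldn19 were detected on none of the 8 arrays.

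Lists of muscle, fat, pigment, vessel and clock genes had no member past the threshold. Of 27 skeletal muscle genes 0 passed in limma and 2 were lower at an unadjusted p below 0.05, near the 7.11% of all genes, with a median of -0.29 and sums of 109590 to 120270 in Shp2lof and 99641 to 150780 in control skin. The muscle genes Myot and Tnnt1 read -0.81 ± 0.25 (adjusted p = 0.0978) and -0.63 ± 0.28 (adjusted p = 0.279). Of 21 adipocyte genes 0 passed and 8 were lower at an unadjusted p below 0.05, against 7.11% of all genes, with a median of -0.28 and sums of 17261 to 27079 in Shp2lof and 19803 to 29278 in control skin. Lipe, the hormone-sensitive lipase, read -0.56 ± 0.16 (adjusted p = 0.0754) and Cidea, a lipid droplet gene, -1.05 ± 0.35 (adjusted p = 0.127), both without overlap, and without control 1 the count was 1. Of 13 pigment genes 0 passed and 2 had an unadjusted p below 0.05, among them the melanocyte regulator Mitf at -0.67 ± 0.25 (adjusted p = 0.195) and Rab38 at 0.53 ± 0.20 (adjusted p = 0.196). Of 10 endothelial markers 0 passed and 1 had an unadjusted p below 0.05, with Lyve1 at -0.81 ± 0.31 (adjusted p = 0.213) and Tek at -0.46 ± 0.23 (adjusted p = 0.335). Of 12 clock genes 0 passed and 2 had an unadjusted p below 0.05, with Bhlhe40 at 0.78 ± 0.20, just outside the threshold (adjusted p = 0.0503), and Ciart at 0.40 ± 0.14 (adjusted p = 0.169). With the mean skeletal muscle level as a covariate 235 genes passed.

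**Figure D5:**
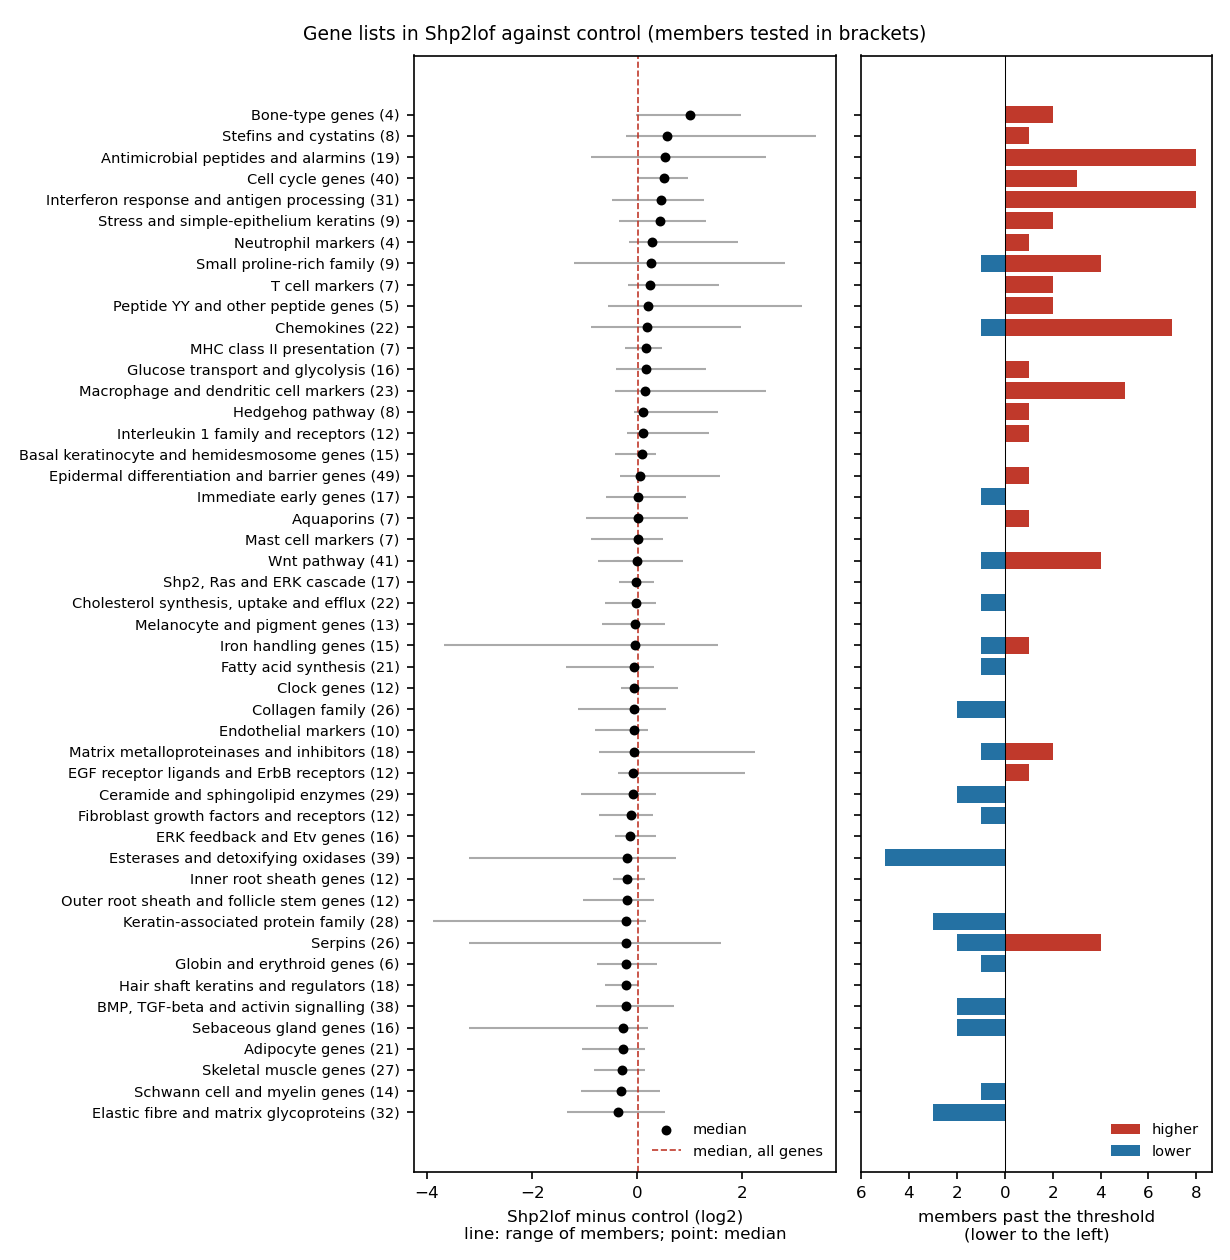
Each row is a gene list with at least 4 tested members (their number in brackets), sorted by median. The left panel shows the range and the median of the members' differences (log2) beside the median of all genes (dashed), and the right panel the members past the threshold, higher to the right and lower to the left. Antimicrobial and interferon genes had 8 members higher each, and esterases and detoxifying oxidases had 5 lower.

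Most of the calls, 172 of 261, lay in none of the lists. Of those among the largest decreases, Samd5 read 6.81, 6.49, 6.82 and 6.84 on the Shp2lof arrays, against 7.64, 8.18, 8.31 and 8.07 on the control arrays (2.48-fold lower, adjusted p = 0.000184). Cpz, a carboxypeptidase gene, read 6.26, 6.24, 6.30 and 6.31 on the Shp2lof arrays, against 7.37, 7.84, 7.38 and 7.61 on the control arrays (2.42-fold lower, adjusted p = 0.0069), and Paqr7, a membrane progestin receptor, fell 2.35-fold (adjusted p = 0.00584). The adhesion gene Nectin3 read 9.95, 9.48, 9.90 and 9.80 on the Shp2lof arrays, against 10.85, 10.85, 11.03 and 10.86 on the control arrays (2.16-fold lower, adjusted p = 0.000368). A pair of further Nectin3 probes gave -0.06 and -0.77, so its size is uncertain. The nicotinic receptor gene Chrna4 read -1.44 ± 0.33 (adjusted p = 0.0256), and its other probe read -1.57. The ribonuclease gene Ear10 read -1.26 ± 0.30 (adjusted p = 0.0332) and the RNA helicase gene Ddx6 -1.17 ± 0.28 with overlap (adjusted p = 0.0293), whose other probes read -0.54 and -0.76 and did not pass. Single arrays decided Chrna4 (without Shp2lof 1, 2 or 3 or control 3 or 4, adjusted p up to 0.0976), Ear10 (without any Shp2lof array or control 3 or 4, adjusted p up to 0.133) and Ddx6 (without Shp2lof 1, 2 or 4 or control 1, 2 or 3, adjusted p up to 0.119).

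Further genes in no list, all chosen after their values were seen, are given by direction. Epithelial genes that rose were the keratin genes Krt90 (1.59 ± 0.35, adjusted p = 0.0185) and Krt42 (1.36 ± 0.29, adjusted p = 0.0171), the hyaluronan receptor gene Cd44 (0.81 ± 0.17, adjusted p = 0.0126) and Psca (1.03 ± 0.20, adjusted p = 0.00879). The other probes of Cd44 lay between -0.04 and 0.22 and did not pass, so Cd44 is uncertain. Genes of leukocytes or their stimulation that rose were the formyl peptide receptor gene Fpr2 (1.24 ± 0.26, adjusted p = 0.0137) and the macrophage sialic acid receptor gene Siglec1 (0.88 ± 0.22, adjusted p = 0.0387). Fpr2 was detected on 2 of the 4 control arrays. Single arrays decided Krt90 (without Shp2lof 2 or 4 or control 3 or 4, adjusted p up to 0.0745), Krt42 (without Shp2lof 2 or control 2 or 3, adjusted p up to 0.0638), Fpr2 (without Shp2lof 4 or control 3, adjusted p up to 0.0583), Siglec1 (without Shp2lof 2, 3 or 4 or any control array, adjusted p up to 0.112) and Cd44 (without Shp2lof 2, adjusted p up to 0.0522).

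Among those that fell, Gata6, a transcription factor of the sebaceous duct, read 7.18, 7.14, 7.12 and 6.99 on the Shp2lof arrays, against 8.004, 7.92, 8.07 and 8.63 on the control arrays (-1.05 ± 0.25, adjusted p = 0.0273). Sostdc1, an inhibitor of BMP and Wnt signals in the follicle, read -0.66 ± 0.16 (adjusted p = 0.0377). Slc7a11, the cystine transporter used in red pigment synthesis, read -1.01 ± 0.20 (adjusted p = 0.0116), and the mesenchymal filament gene Vim -0.78 ± 0.20 (adjusted p = 0.0417). The lipoprotein gene Apoe read -1.02 ± 0.26 (adjusted p = 0.0468). Ccl21b and Ccl21c, which encode the lymphatic chemokine CCL21 and are so alike that their probes cannot separate them, read -1.04 ± 0.25 and -1.03 ± 0.26 (adjusted p = 0.0268 and 0.044). The phosphatase gene Dusp2, which acts on ERK and its relatives, read 9.51, 9.36, 9.42 and 9.12 on the Shp2lof arrays, against 10.54, 10.49, 10.32 and 10.21 on the control arrays (-1.03 ± 0.17, adjusted p = 0.0024). Leaving out a single array ended the calls of Gata6, Apoe, Vim, Ccl21b, Ccl21c and Sostdc1. Gata6 was lost without any Shp2lof array or control 3 or 4 (adjusted p up to 0.0899). Apoe was lost whichever array was left out (adjusted p up to 0.155), so no particular array decided it. The Apoe difference stayed between -1.15 and -0.81 over the other settings. Vim was lost without Shp2lof 1, 2 or 3 or any control array (adjusted p up to 0.156). Ccl21b was lost without Shp2lof 1, 3 or 4 or control 2 or 4 (adjusted p up to 0.107). Ccl21c was lost without Shp2lof 2 or 3 or control 1, 2 or 4 (adjusted p up to 0.168). Sostdc1 was lost without Shp2lof 1, 2 or 4 or any control array (adjusted p up to 0.123).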

How the data were processed

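Total RNA of dorsal skin was extracted with Trizol and an RNeasy kit, labelled as biotin cRNA and hybridized, per the labels' protocols. The deposited table gives each array's intensity per probe, read in GenomeStudio per the submitters' processing notes and not normalized, and a detection p-value per probe, as the deposited headers say. The deposited series values differed from it by at most 0.05 signal units. The neqc function (limma 3.58.1, R 4.3.3, offset 16) turned the deposited intensities of all 16 arrays into background-corrected, quantile-normalized log2 values. No bead counts were used, so precision rests on the number of arrays. Of 25697 probes, 14631 had a detection p below 0.05 on at least 4 arrays, and 13765 of these had 1 gene symbol in the platform annotation, most updated through the Entrez gene. The probe with the highest mean level stood for its gene, giving 10232 genes.

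A mean per group was fitted with lmFit and eBayes to the 16 arrays, with 12 residual degrees of freedom, and p-values were adjusted by Benjamini-Hochberg over all 10232 genes. The fit was tested on simulated data. Folds of probes not detected on any array of a group are bounds against the lowest detected signal. Genes named are Ptpn11, Map2k1, Egr2, sex-linked genes, the 25 genes past the threshold that rose most and the 25 that fell most, up to 8 members of a list past it, and, where none passed, the 2 with the smallest p. The comparison, its lists and these rules were chosen with earlier results of these data known. Promoters come from RefSeq (GRCm38.p6), in which 141 of 194 named genes had a window. Python 3.11.15 and matplotlib 3.10.9 drew the figures. Alternatives changed the background correction, the normalization, the filter, the probe rule, the arrays fitted, slide, replicate number, Xist or muscle level, and left out each array.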

Additional observations from a re-analysis of the deposited data

Results flagged for a closer look

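Within a group of 4 arrays, 1 array stood apart by Dixon's 95% critical value in 20 of the 388 groups of the genes given, 5.16%, where chance marks about 1 in 20 groups. The values are log2 levels. Array Shp2lof 1 stood apart in Wnt4 at 8.88 (8.45 to 8.51), the other 3 arrays of its group in brackets. Array Shp2lof 2 stood apart in Defb4 at 7.49 (6.87 to 6.90), Samd5 at 6.49 (6.81 to 6.84) and Psca at 7.37 (6.32 to 6.48). Array Shp2lof 4 stood apart in Eif2s3y at 8.01 (10.40 to 10.86), Dst at 8.002 (7.23 to 7.29) and Fos at 11.60 (8.75 to 9.17). Array control 1 stood apart in Dst at 7.30 (8.04 to 8.11) and Siglec1 at 4.60 (5.08 to 5.16). Array control 2 stood apart in Defb4 at 5.45 (4.80 to 4.90), Tgfb2 at 6.11 (6.40 to 6.44) and Klk6 at 10.05 (9.44 to 9.46). Array control 3 stood apart in Nectin3 at 11.03 (10.85 to 10.86), Fa2h at 11.18 (10.99 to 11.01) and Hbegf at 7.56 (7.998 to 8.06). Array control 4 stood apart in Myot at 7.36 (7.95 to 8.04), Eln at 11.29 (11.04 to 11.07), Defb14 at 6.28 (4.57 to 4.82), Cd44 at 10.23 (9.84 to 9.90) and Timeless at 6.87 (6.34 to 6.42). Eif2s3y and Fos, on array Shp2lof 4, had the widest gaps, and Fos did not pass the threshold.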

How the results depend on the processing

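The 261 calls (154 higher, 107 lower) were recounted under 25 other settings. Without any 1 array the count lay between 130 and 237, with 80 to 139 higher and 50 to 98 lower. With no normalization of the intensities, or with the deposited series values, 149 passed, of which 38 were lower. Fitted to the 8 arrays alone 408 passed, with 187 lower, and with array weights 463, with 246 higher and 217 lower. On slide 1 alone, with 2 arrays a group, 108 passed (63 higher, 45 lower), and on slide 2 alone 175 with 97 higher, while slide as a block gave 307, with 260 of the 261 among them. The cause of these shifts was not tested, except that fewer arrays were fitted where arrays were left out. Same-numbered arrays of the 2 groups correlated in their deviations at 0.384, 0.121, 0.0504 and 0.256, not all above 0.1, and control 3 correlated best with another number, so the numbers were not taken as pairs. With the replicate block 284 genes passed, 234 of them among the 261. Over 4732 single-gene values, 4030 kept direction and side of the threshold, 626 lost a call, 74 gained one and 2 turned sign. Both of these were of Map2k1, at -0.097 on slide 2 alone and between -0.062 and 0.32 without 1 array, the lowest without control 2, where the full fit gave 0.14. Of 127 called genes named, 64 passed without each of the 8 arrays, 82 without Shp2lof 4, 127 with slide as a block, 119 with the replicate block, 121 with Xist and 103 with the muscle level as a covariate, and 68 under every setting that kept all 8 arrays. Some named genes outside the 261 passed with slide as a block. Among them were Bhlhe40, Tap1, Klk6 and Col3a1 (limma, adjusted p = 0.009, 0.013, 0.0165 and 0.0343). Mfap4, Mbp and Foxn1 did so as well (limma, adjusted p = 0.0442, 0.0483 and 0.0497). For 9 calls no array of 1 group detected the probe, so signal over background limits these to bounds.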
